A study of Mus musculus with 12 samples.

Results

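The genes described here encode the enzymes that cut and modify neuropeptide precursors and the main soluble proteins of secretory granules. They are the convertases Pcsk1 and Pcsk2, the convertase inhibitor Pcsk1n, the chaperone Scg5, the carboxypeptidase Cpe, the amidating enzyme Pam and the granins Chga, Chgb, Scg2 and Scg3. They were chosen by name, as the probesets of the main type whose gene symbol is on this list. All 10 genes were found among the 17550 gene symbols of the deposited table, with 125 of its 221417 main probesets. A probeset is a small set of probes to a single exon or a piece of one.

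The study compared brains of newborn KIS-ko mice with those of wildtype littermates on Affymetrix Mouse Exon 1.0 ST arrays. KIS is a protein kinase, the product of Uhmk1, and the protein made by Pam is among its reported partners, so that the comparison asks here whether the mRNAs of Pam and of the granule proteins around it differ when KIS is missing. The wildtype group held 6 brains of genotype KIS +/+ and the KIS-ko group 6 brains of genotype KIS -/-, all from newborn females, with 1 pair of littermates from each of 6 litters and 1 array per brain. Both genotypes were of the C57BL6/N background after repeated backcrossing, no treatment was given, and the knockout is present in all cells from conception. Total RNA was prepared from the whole brain ground to powder, and in such bulk samples fewer cells of a type and less RNA per cell cannot be told apart. The gene symbol Uhmk1 checked the labels. Its value fell by 2.11 on the log2 scale in KIS-ko (standard error 0.068, adjusted p = 2.9e-07 from limma), and the genotypes did not overlap.

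Neuropeptides are made as long precursors that enter the secretory pathway and are packed into dense-core granules. Inside the maturing granule, convertases cut the precursor after pairs of basic residues, a carboxypeptidase trims those residues away, and PAM turns a C-terminal glycine into the amide that many peptides need for full activity. Granins are acidic proteins that aggregate with the cargo as granules form and are themselves cut into peptides. PAM also has a form anchored in the membrane, whose cytosolic tail guides its route through the cell and is bound by several proteins, KIS among them.

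Promoter sequences were at hand for 9 of the 10 genes, as RefSeq windows on assembly GRCm38.p6 that run from 250 bases before to 50 bases after a transcript start (none for Cpe). They are shown because several of these genes are textbook targets of cyclic AMP signalling through the cAMP response element, TGACGTCA, and because the genes are treated here as a group. The letters TGACGTCA, which read the same on both strands, were found in the windows of 3 of the 9 symbols, against 588 of all 32851 windows (1.79%). The core TGACG, which is part of the longer motif, was found on either strand in 7 of the 9 symbols and in 20.8% of all windows. Neither motif was found in the windows of Pam and Pcsk1n. The group is counted by symbol and the background by window, and a symbol can have several windows, so the shares are not strictly alike. In the stretches that follow, given 5′ to 3′ on the gene's own strand, capitals mark the full element in the first 3 and the core in Chga. The element lies at -78 to -71 from the transcript start in Pcsk1 (stretch at chr13:75089749-75089816, plus strand), at -72 to -65 in Chgb (chr2:132781540-132781607, plus strand) and at -68 to -61 in Scg2 (chr1:79440057-79440124, minus strand). The core lies at -44 to -40 in Chga (chr12:102554867-102554931, plus strand). A match of letters is a description and shows no binding.
Pcsk1: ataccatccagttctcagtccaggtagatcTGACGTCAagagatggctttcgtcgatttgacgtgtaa
Chgb: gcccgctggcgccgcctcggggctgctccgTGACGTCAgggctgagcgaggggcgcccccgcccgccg
Scg2: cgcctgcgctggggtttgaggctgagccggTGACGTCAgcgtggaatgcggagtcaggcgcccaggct
Chga: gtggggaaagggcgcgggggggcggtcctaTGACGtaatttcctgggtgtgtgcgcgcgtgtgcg

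Transcripts of 9 of the 10 genes were detected in the newborn brain by 2 or more probesets, and Pcsk1 by 1. The intensity of a probeset was compared with that of the 5222 intron control probesets of the array, whose mean signals had a median of 114 and a 95th percentile of 713. Of the 125 probesets, 93 lay above that percentile, against 44.6% of all probesets tested. Every probeset of Pcsk2 (14) and Cpe (11) was above it, with mean signals of 908 to 4116 for Pcsk2 and 1634 to 7328 for Cpe. So were 12 of 13 for Scg3, 9 of 10 for Chgb, 5 of 6 for Pcsk1n, 22 of 28 for Pam, 11 of 15 for Chga, 6 of 10 for Scg5 and 2 of 4 for Scg2. For Pcsk1 only 1 of 14 probesets was above it, with signals of 101 to 1274, so that its gene value rests on dim probes. Probes differ in affinity, and the levels of different genes or probesets were therefore not ranked.

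One pair of brains stood apart by its hormone transcripts. The anterior pituitary is rich in granule proteins, and whether any of it came with a brain is not given in the sources used here. The growth hormone gene Gh and Cga, the common subunit of the glycoprotein hormones, are 2 of the 10 pituitary markers looked at, and all 6 Gh and all 4 Cga probesets were rejected by the limit that the methods set on the relative standard deviation of a probeset within a genotype, so that neither entered the tests. Before that limit, the gene value of Gh (log2(signal + 16) averaged over probesets) was 12.15 in the wildtype brain of litter 1 and 7.61 to 8.04 in the other wildtype brains, and it was 9.06 in the KIS-ko brain of litter 1 and 7.67 to 8.03 in the other KIS-ko brains. That of Cga was 9.78 in the wildtype brain of litter 1 and 5.97 to 6.42 in the other wildtype brains, with 6.18 to 6.78 in all KIS-ko brains. The brightest Gh probeset had signals of 19015 and 1088 in the wildtype and the KIS-ko brain of litter 1 and of 83.7 to 202 in the other brains. Over all 10 markers the mean level was 7.89 in the wildtype brain of litter 1 and 6.85 to 7.18 in the other 11 brains.

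The wildtype brain of litter 1 had the highest wildtype value of 4 of the granule and processing genes, namely Pam, Scg5, Chga and Chgb, as it had for 25.8% of all genes tested. After the median gene of each array was subtracted, it was the highest wildtype brain for 0 of the 10 genes, against 8.79% of all genes. The KIS-ko brain of that litter was lower than its littermate for all 10. Each genotype difference that follows includes this litter. Without it, 9 of the 10 genes were still lower, all but Pcsk1n (0.018), none was called by limma and 0 had an unadjusted p below 0.05. Apart from Pcsk1n, the difference moved most in proportion for Chga (from -0.073 to -0.042), Scg5 (from -0.073 to -0.045) and Chgb (from -0.068 to -0.045), while that of Pam went from -0.11 to -0.076, that of Cpe from -0.099 to -0.086 and that of Scg2 from -0.12 to -0.13.

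For the comparison of genotypes, the value of a gene on an array was log2(signal + 16) averaged over its probesets, which understates changes of dim genes. All 125 probesets passed the limit on the relative standard deviation. Differences are KIS-ko minus wildtype on the log2 scale, with the litter as a block, tested with limma and adjusted over 17279 genes. Of these genes 1 was called at an adjusted p of 0.05 (0.00579%), the targeted gene, and 1065 had an unadjusted p below 0.05 (6.16%). None of the 10 genes was called in KIS-ko brains, and 0 of them had an unadjusted p below 0.05. The mean differences of all 10 lay below 0, between -0.12 for Scg2 and -0.0046 for Pcsk1n, in a table in which 69.8% of all genes had a lower mean in KIS-ko. Their adjusted p lay between 0.685 and 0.987 from limma.

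**Figure D1:**
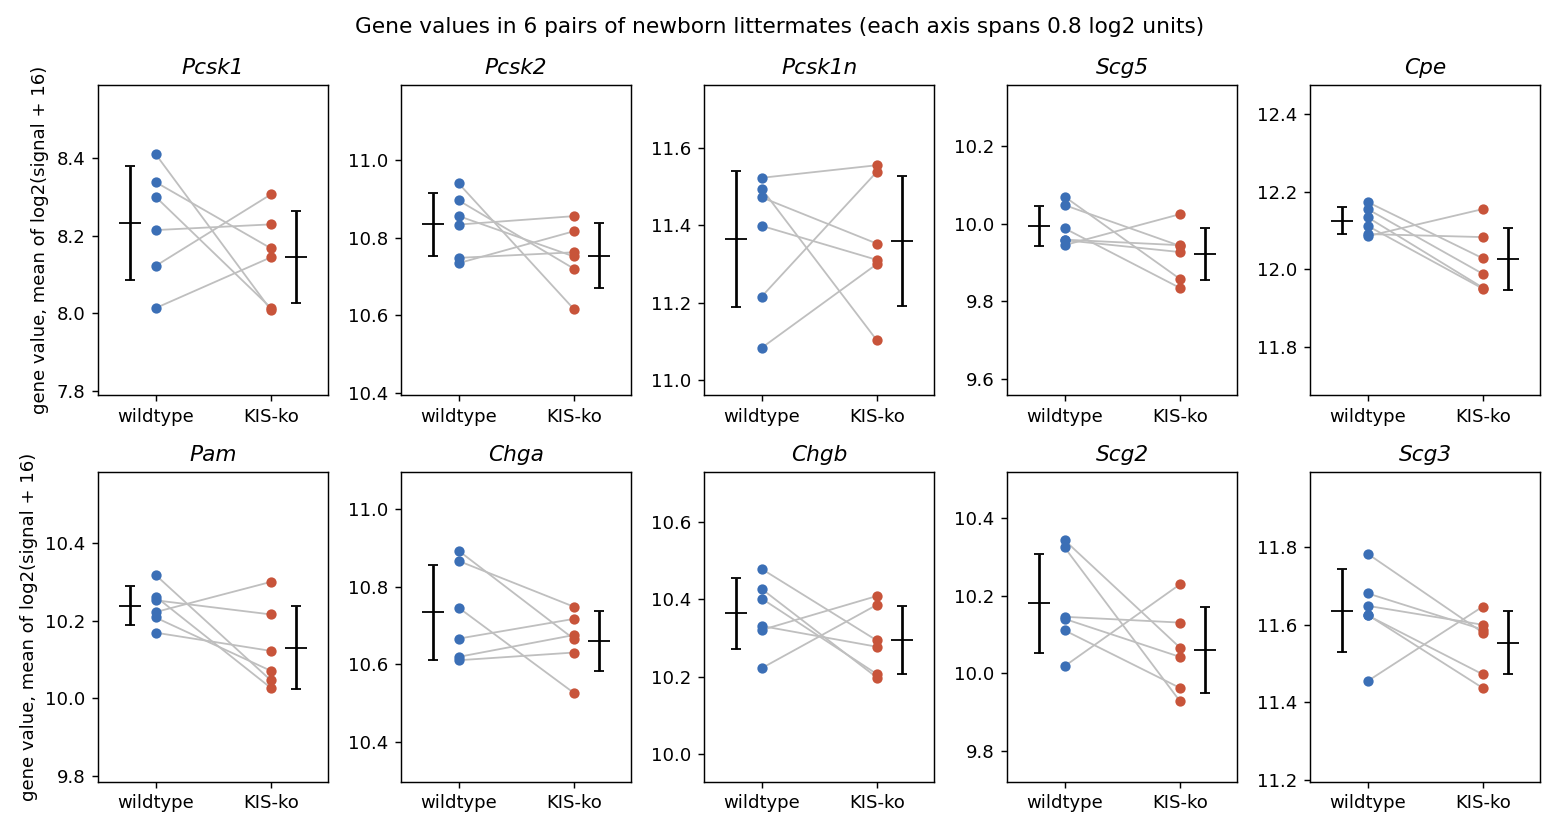
Gene value (mean over probesets of log2(signal + 16)) of each gene in wildtype (blue) and KIS-ko (red) newborn brains, with grey lines joining littermates and black bars for the mean ± SD of 6 arrays. Every axis spans the same number of log2 units, and in all 10 panels the 2 genotypes overlap.

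The convertases Pcsk1 and Pcsk2 cut precursors after paired basic residues. Pcsk1 had gene values of 8.01 (lowest), 8.26 (median) and 8.41 (highest) in the wildtype brains and of 8.01, 8.16 and 8.31 in the KIS-ko brains. The KIS-ko brain was the lower one in 3 of 6 litters, with differences from -0.40 to 0.18, a mean of -0.088 (standard error 0.079) and a 95% interval of -0.26 to 0.088. The groups overlapped over nearly their whole range, and with dim probesets left out the single remaining probeset of Pcsk1 gave a difference of the other sign, 0.096 (standard error 0.080, adjusted p = 0.751 from limma). Pcsk2 had values of 10.73, 10.84 and 10.94 in wildtype and of 10.62, 10.76 and 10.86 in KIS-ko. It was lower in 3 of 6 litters, by up to -0.32 in litter 6, with a mean of -0.081 (standard error 0.061) and a 95% interval of -0.22 to 0.053. All 14 Pcsk2 probesets had a mean difference below 0, although 4 KIS-ko brains lay within the wildtype range.

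Pcsk1n and Scg5 act on the convertases themselves. The Pcsk1n product, proSAAS, inhibits the Pcsk1 convertase, and the Scg5 product is a chaperone that the Pcsk2 convertase needs to become active. Pcsk1n spread most between litters, with wildtype values of 11.08, 11.44 and 11.52 and KIS-ko values of 11.10, 11.33 and 11.55. Its differences ran from -0.39 in litter 2 to 0.32 in litter 4, with a mean of -0.0046 (standard error 0.084) and a 95% interval that allows a fall of up to 12.4% or a rise of up to 13.5%. The sign of so small a value was not stable, and it was above 0 with the arrays centred on their medians (0.051), quantile-normalized again (0.029), with the median taken over probesets (0.016) and in several other settings. Scg5 had values of 9.94, 9.97 and 10.07 in wildtype and of 9.83, 9.93 and 10.02 in KIS-ko. Its KIS-ko value was the lower one in 5 of 6 litters. Of the KIS-ko brains 3 lay below the lowest wildtype brain by more than 0.01, and those of litters 2 and 3 were level with it (9.94 each). The mean difference was -0.073 (standard error 0.052, 95% interval -0.19 to 0.042), and it was 0.0098 with the median taken over probesets.

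Cpe removes the basic residues that the convertases leave behind. It was the gene of the group with the smallest residual spread after the litter and genotype terms (0.074, and 24.1% of all genes tested had a smaller one). Its wildtype values were 12.09, 12.12 and 12.17, and its KIS-ko values 11.95, 12.01 and 12.16. The KIS-ko brain was the lower one in 5 of 6 litters and 5 of 6 KIS-ko brains lay below the lowest wildtype brain, 4 of them by more than 0.01, the exception being litter 4. Of all genes tested 22.5% were lower in at least 5 litters. Counts of brains below the wildtype range are given for single genes here, without a share over all genes. The mean difference was -0.099 with a standard error of 0.052 and a 95% interval of -0.21 to 0.016 (adjusted p = 0.685 from limma). Without the replicate block, which leaves the pairing out, its unadjusted p was 0.0485 and its adjusted p from limma 0.747, and with the block kept and moderation with trend and robust they were 0.0294 and 0.665. All 11 Cpe probesets had a mean difference below 0.

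Pam, which makes the peptide amide, had gene values of 10.17, 10.24 and 10.32 in wildtype and of 10.03, 10.10 and 10.30 in KIS-ko brains. In the single litters the difference was -0.27, -0.036, -0.14, 0.078, -0.047 and -0.24 in litters 1 to 6. The KIS-ko brain was thus the lower one in 5 litters, 4 KIS-ko brains lay below the lowest wildtype brain, and the KIS-ko brain of litter 4 lay near the top of the wildtype range. Their mean was -0.11 (standard error 0.057), or -7.25%, which did not pass the test (adjusted p = 0.685 from limma). Its 95% interval of -0.23 to 0.017 allows a fall of up to 15.0% or a rise of up to 1.21%. It kept its sign in all 16 alternative settings, between -0.15 and -0.042, and was called in 0 of them.

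The granins Chga and Chgb are the chromogranins of the dense granule core. Chga had values of 10.61, 10.71 and 10.89 in wildtype and of 10.53, 10.67 and 10.75 in KIS-ko, and was lower in 3 of 6 litters. Its mean difference was -0.073 (standard error 0.057, 95% interval -0.20 to 0.053). Chgb had values of 10.22, 10.37 and 10.48 in wildtype and of 10.20, 10.29 and 10.41 in KIS-ko, and was lower in 4 litters. Its mean difference was -0.068 (standard error 0.063, 95% interval -0.21 to 0.071). For both chromogranins the genotypes overlapped broadly, and the litters that went the other way differed by at most 0.056 for Chga and 0.16 for Chgb.

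Scg2 is the precursor of secretoneurin, and the Scg3 product binds chromogranin A and cholesterol-rich granule membrane. Scg2 had values of 10.02, 10.14 and 10.34 in wildtype and of 9.93, 10.05 and 10.23 in KIS-ko brains. The differences were -0.40 in litter 6 and -0.28 in litter 2 but 0.21 in litter 4, and their mean of -0.12 (standard error 0.074, 95% interval -0.28 to 0.043) was the lowest of the 10 genes in this setting, though not without litter 2, 5 or 6. Only 2 of its 4 probesets were above the controls, and with dim probesets left out the mean was -0.052 (standard error 0.064, not called by limma), nearer to 0 than those of Cpe (-0.099), Pcsk2 (-0.081) and Pam (-0.079) in that setting. Lower values were measured in 5 of 6 litters, while 2 KIS-ko brains lay below the wildtype range. Scg3 had values of 11.45, 11.64 and 11.78 in wildtype and of 11.44, 11.58 and 11.65 in KIS-ko. It too was lower in 5 of 6 litters, with a mean of -0.083 (standard error 0.060, 95% interval -0.21 to 0.050). The lowest wildtype value of Scg3 and of Scg2 was that of litter 4, where the KIS-ko brain had the highest KIS-ko value of both genes.

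**Figure D2:**
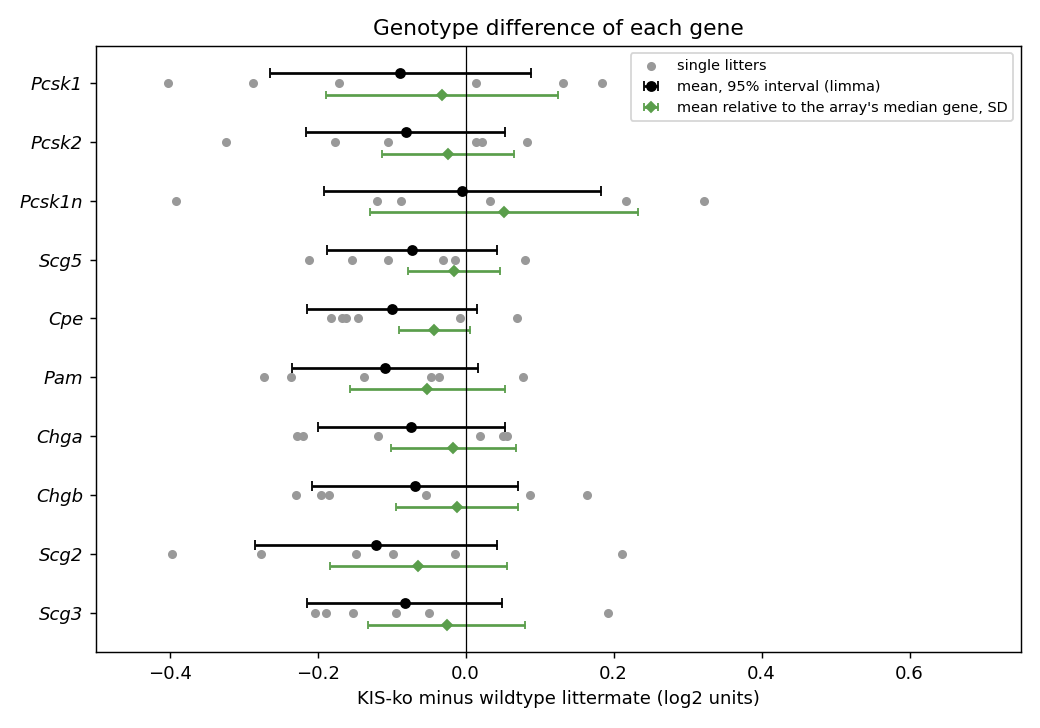
KIS-ko minus wildtype of each gene in log2 units: grey points are the 6 litters, black points the mean with its 95% interval from limma, and green diamonds the mean ± SD (n = 6 litters) after the difference of the array's median gene was subtracted. All 10 black intervals include 0. Each green mean is the black one less the same -0.057, which by arithmetic brings every gene except Pcsk1n nearer to 0 and the median over all genes to 0.021.

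The differences of the 10 genes moved together from litter to litter, and with the arrays. All 10 genes were lower in the KIS-ko brain in litters 1, 2 and 6, and all 10 were higher in litter 4. In litter 3 the split was 5 lower and 5 higher, and in litter 5 it was 6 lower and 4 higher. The median over the 10 genes was -0.18, -0.13, 0.0032, 0.12, -0.039 and -0.21 in litters 1 to 6. The median gene of the whole array differed by -0.076, -0.14, -0.011, 0.099, -0.050 and -0.16 in the same litters, with the sign of the 10-gene median in 5 of the 6 litters. The part of the array level in the differences was not tested, but the differences relative to it are given here.

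Of the 10 genes, 5 were lower in at least 5 litters (Pam, Cpe, Scg5, Scg2 and Scg3), against 22.5% of all genes tested, and 0 were lower in all 6. The median of the 10 mean differences was -0.082, beside -0.036 over all genes. After the median gene of each array was subtracted, whose mean genotype difference was -0.057 ± 0.095 (SD, n = 6 litters), the median of the 10 genes was -0.025, beside 0.021 over all genes. On that scale 9 of the 10 genes remained below 0, all but Pcsk1n, against 37.1% of all genes. The values relative to the median gene were -0.064 ± 0.12 for Scg2, -0.052 ± 0.10 for Pam and -0.042 ± 0.048 for Cpe (SD, n = 6 litters). Those of Pcsk1 (-0.032 ± 0.16), Scg3 (-0.026 ± 0.11), Pcsk2 (-0.024 ± 0.089), Chga (-0.016 ± 0.085), Scg5 (-0.016 ± 0.062) and Chgb (-0.012 ± 0.083) were nearer to 0, and Pcsk1n was at 0.052 ± 0.18. Only Cpe and Scg2 were below 0 in 5 of 6 litters on this scale, against 8.58% of all genes with 5 or more, and the highest litter of Cpe was at 0.0035. Pam and Chgb were below 0 in 4 litters, Scg5, Scg3, Pcsk1, Pcsk2 and Chga in 3 and Pcsk1n in 2.

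Litter 4 was the litter in which all 10 genes went the other way. Without it all 10 genes were lower, with a median difference of -0.12, and 4 of them had an unadjusted p below 0.05, namely Scg2 (-0.19, standard error 0.062), Scg3 (-0.14, standard error 0.046), Cpe (-0.13, standard error 0.046) and Pam (-0.15, standard error 0.052). None was called, with adjusted p of 0.158, 0.158, 0.167 and 0.173 from limma in that order. Pcsk1 (-0.14), Chgb (-0.11) and Pcsk1n (-0.070) moved away from 0 by more than 1.5 times as well. Leaving out litter 4 also raised the count of all genes with an unadjusted p below 0.05 from 1065 to 3913. With any other litter left out, 0 of the 10 genes had an unadjusted p below 0.05. Litter 6 moved the values the other way. Without it the median difference was -0.050, and those of Pcsk1 (-0.025), Pcsk2 (-0.032), Scg2 (-0.065), Chga (-0.044) and Chgb (-0.043) came nearer to 0 by more than 1.5 times, with Pam (-0.083) then the lowest of the 10 and Pcsk1n above 0 (0.012). Without litter 2 the same held for Pcsk1 (-0.049) and Chgb (-0.036), with Pam (-0.12) the lowest and Pcsk1n at 0.073, and without litter 5 Pcsk1 (-0.13) was the lowest.

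**Figure D3:**
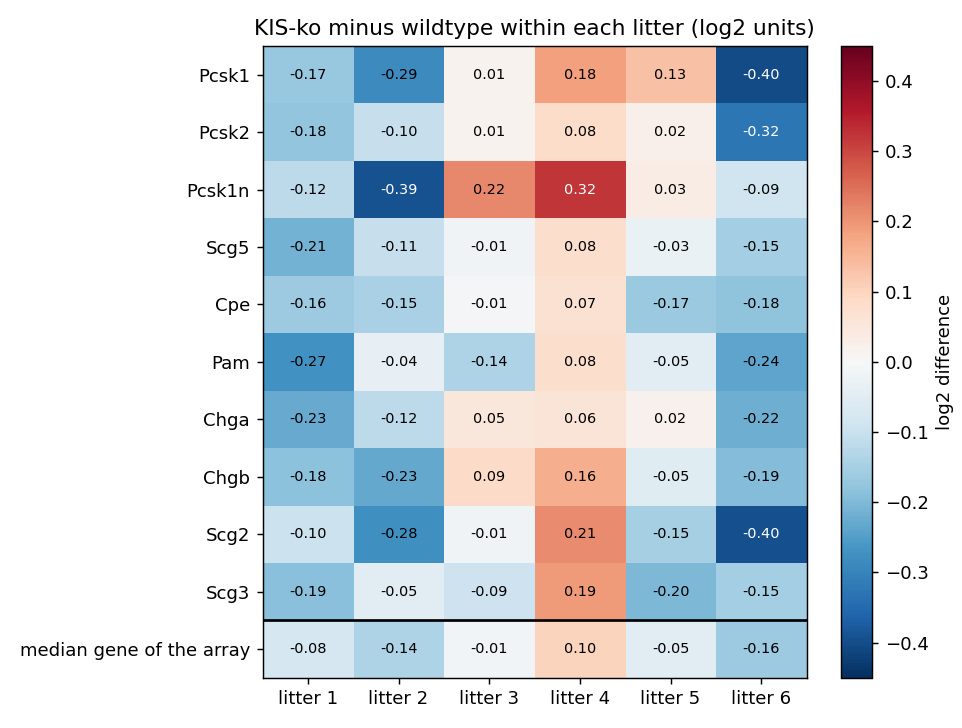
KIS-ko minus wildtype (log2 units, printed in each cell and coloured from blue, lower in KIS-ko, to red, higher) for each gene and litter, with the difference of the median gene of the 2 arrays in the bottom row. Litters 1, 2 and 6 are blue and litter 4 is red for all 10 genes and for the median gene.

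The methods of the study use another measure, the mean of the 6 littermate ratios of each probeset, weighted over the probesets of a gene by the inverse of their relative standard deviation, and take up genes that differ by at least 6%. By that measure Scg2, at a fold change of 0.937 ± 0.11 (SD, n = 6 pairs), was the only one of the 10 genes past this limit, which 26.4% of all genes tested passed. Pam had a fold change of 0.942 ± 0.068, Cpe of 0.952 ± 0.047 and Pcsk2 of 0.956 ± 0.086. Chga (0.962), Scg3 (0.965), Chgb (0.967), Scg5 (0.976) and Pcsk1 (0.979) were nearer to 1, and Pcsk1n was at 1.02. Except for Cpe, the distance from 1 was smaller than the SD over the pairs for each of the 10 genes. This measure carries no test here, and the count past 6% was not stable. It was 0 with the arrays centred, quantile-normalized again or without litter 6, while Pcsk1 alone passed with dim probesets left out, at 1.08. It was 1 to 2 without litter 1, 2, 3 or 5, and 6 without litter 4, when Pam, Pcsk2, Cpe, Chgb, Scg2 and Scg3 passed.

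The array resolves Pam along its transcript, and 28 probesets with 24 exon identifiers cover it. Pam is listed on chromosome 1, minus strand, from 99718152 to 99873834. Positions follow the table, whose genome build is not named in it and is not the assembly used for the promoters. Of these probesets 22 are marked as matching 1 place in the genome. Numbered from the 5′ end, their mean signals ran from 209 (number 28, the most 3′ one) to 3555 (number 20). Numbers 6, 7, 14, 25, 26 and 28 were not above the 95th percentile of the intron controls.

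In 25 of the 28 Pam probesets the mean was lower in KIS-ko, the exceptions being numbers 4, 15 and 27, beside 66.2% of all 205469 probesets tested. Over all 10 genes it was 111 of 125, and probesets of a gene share the same arrays and are not replicates. None of the 28 was called by limma, against 10 of all probesets (0.00487%), and 1 had an unadjusted p below 0.05, against 6.63%. That one was number 10, at chr1:99792546-99792622. Its signals were 2062 (lowest), 2208 (median) and 2313 (highest) in wildtype and 1677, 1950 and 2296 in KIS-ko. It was lower in all 6 litters, by a mean of -0.16 (standard error 0.063, adjusted p = 0.751 from limma), while the KIS-ko brains of litters 4 and 6 still lay within the wildtype range. The most 3′ probeset had the lowest mean difference, -0.32, with a standard error of 0.21 and signals of 103 to 282 that lie in the range of the controls.

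**Figure D4:**
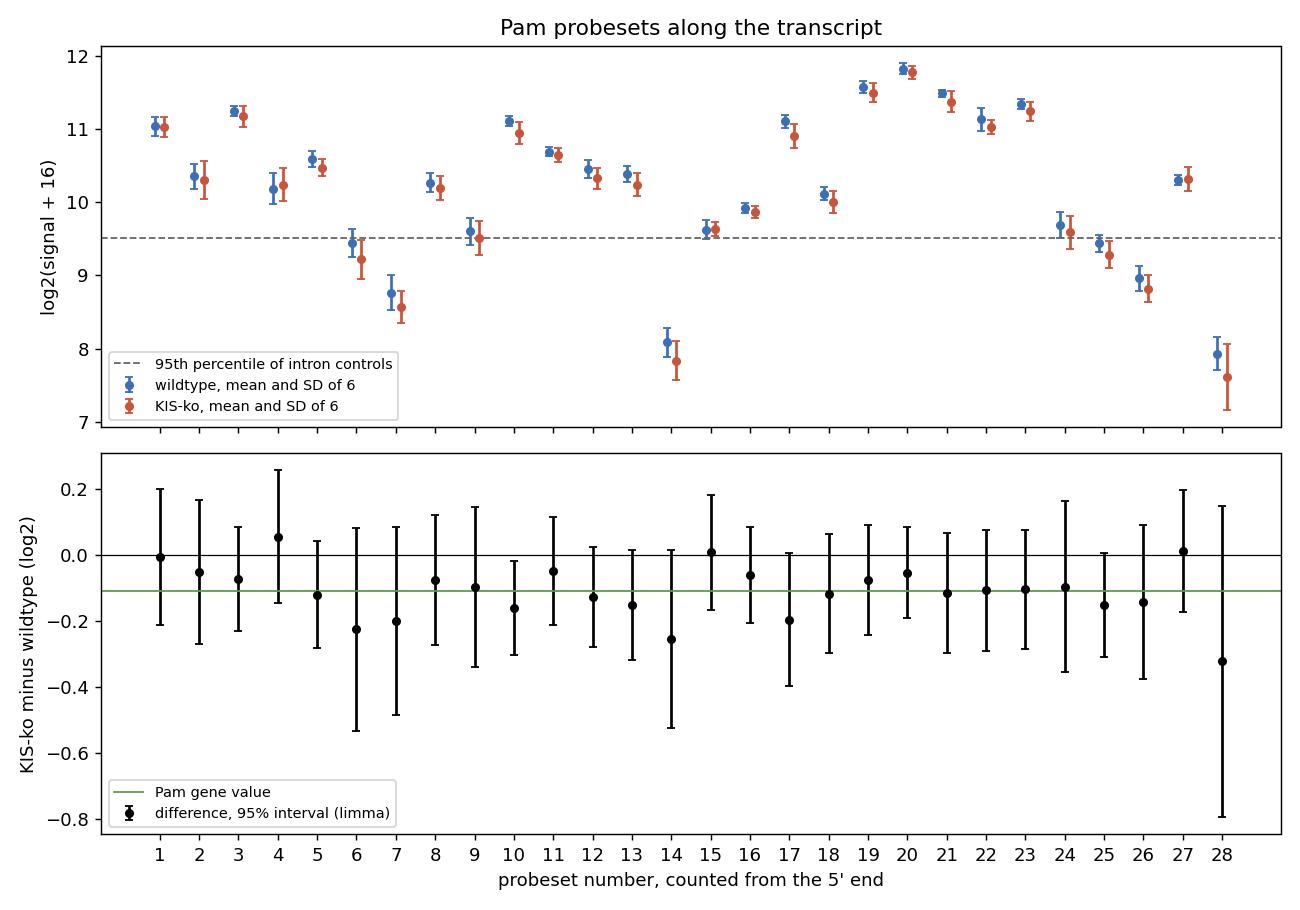
Upper panel, log2(signal + 16) of the 28 Pam probesets in wildtype (blue) and KIS-ko (red) as mean ± SD of 6 arrays, against the probeset number from the 5′ end, with the 95th percentile of the intron controls dashed. Lower panel, KIS-ko minus wildtype of each probeset with its 95% interval from limma, with the gene value of Pam in green; only the interval of number 10 leaves out 0.

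Whether the exon profile of Pam changed was asked with the splicing index, the log2 signal of a probeset minus the mean of the other probesets of its gene. None of the 28 Pam indexes was called, and 0 had an unadjusted p below 0.05. Of the 202944 indexes tested in genes with at least 3 probesets, limma called 2 (0.000985%) and 6.09% had an unadjusted p below 0.05. The Pam indexes differed by between -0.22 and 0.17. The mean of the 14 probesets nearer the 3′ end minus that of the 14 nearer the 5′ end, a measure of a shift along the transcript, differed between littermates by -0.12, 0.077, -0.068, -0.013, 0.019 and 0.11 in litters 1 to 6. The mean was 0.0013 ± 0.088 (SD, n = 6 litters), and an exact permutation test by sign flips gave a two-sided p of 0.969, where 6 litters allow none under 0.03125. The median over the 12779 genes with at least 6 probesets was -0.010.

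In the other genes 2 probesets drew attention by the rule used to name them. Probeset 2 of the 13 of Scg3, at chr9:75530760-75530792, had signals of 424, 718 and 785 in wildtype and of 375, 524 and 583 in KIS-ko. It differed by -0.37 (standard error 0.14, adjusted p = 0.751 from limma), and its splicing index by -0.31 (standard error 0.10, adjusted p = 0.783 from limma). It was lower in 5 of 6 litters, but its mean signal of 584 was not above the 95th percentile of the controls. Probeset 1 of the 4 of Scg2, at chr1:79432973-79433333, had an index that was higher by 0.15 (standard error 0.064, adjusted p = 0.820 from limma), with a mean difference of its own of only -0.011. Neither passed the adjusted test.

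The genes of the group were also compared across the 12 arrays after the median gene of each array was subtracted. This is a description with no test, since the arrays share litters and both genotypes. Over the 45 pairs of genes the median correlation was 0.36, beside 0.065 over all pairs of genes tested, and 14 pairs (31.1%) were above 0.5, against 14.8% of all pairs. All pairs include dim genes, and 44.6% of all probesets were above the controls, against 93 of 125 here. The comparison was not matched for signal, so it does not show that the correlation is particular to this group. The highest were Cpe with Scg3 (0.81), Cpe with Scg5 (0.80) and Pam with Scg5 (0.80), and the lowest was Pcsk1 with Scg3 (-0.24). The correlation with Pam was exceeded by 0.631% of all genes tested for Scg5, 4.07% for Cpe, 8.48% for Pcsk2, 10.3% for Scg3, 19.1% for Chga and 27.0% for Scg2. For Pcsk1n (48.9%), Chgb (52.3%) and Pcsk1 (54.3%) it was near the middle of all genes, with Pcsk1 at -0.0030 and Chgb at 0.015. Without that subtraction the median over the 45 pairs was 0.64, beside 0.10 over all pairs. The 5 genes whose pattern was most like that of Pam over the 12 arrays were Zbtb44 (0.917), Trak2 (0.908), BC024814 (0.902), Rabgap1 (0.900) and S100pbp (0.889), and none of them was called.

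Around these genes lie the other parts of the pathway. Of 17 other enzymes that process or modify peptides, 14 had a lower mean in KIS-ko, with a median of -0.072, and none was called by limma. One of them, the aminopeptidase and cathepsin Ctsh, had an unadjusted p below 0.05, at -0.14 (standard error 0.061, adjusted p = 0.685 from limma). Of 37 other granule proteins or proteins of granule formation and release, 30 were lower, with a median of -0.043, and 0 had an unadjusted p below 0.05. The lowest p among them was that of Rph3al, an effector of Rab3 and Rab27 in exocytosis, at 0.12 (standard error 0.058, adjusted p = 0.685 from limma). Both medians are to be read beside -0.036 over all genes, and both counts of lower genes beside 69.8% of all genes.

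Of 8 proteins that bind the cytosolic tail of PAM or serve its copper and electron supply, 7 were lower and 1 higher. The 7 include Uhmk1, the targeted gene, whose fall was set by the design and which alone was called. Of all genes tested 69.8% were lower. None of the other 7 had an unadjusted p below 0.05. They were Trio (-0.090), Rassf9 (-0.098, no probeset above the controls), the copper pump Atp7a (-0.11), the copper importer Slc31a1 (-0.12), Cyb561 (-0.017), which passes electrons into the granule, and the adaptor subunits Ap1s1 (-0.020) and Ap1m1 (0.0052). Of 33 peptide precursors listed for amidated products, 19 were lower and 14 higher, with a median of -0.0087 and none called by limma. Whether the product of each is amidated by PAM was not checked. For 18 of the 33 no probeset was above the 95th percentile of the controls, so that the array says little about them at birth. Those with an unadjusted p below 0.05 were Tac1, the substance P precursor, at -0.20 (standard error 0.077), Hcrt, the orexin precursor, at -0.12 (standard error 0.049), and Kiss1, the kisspeptin precursor, at 0.19 (standard error 0.053), all with an adjusted p of 0.685 from limma. Tac1 had all of its 6 probesets above the controls and was lower in 5 of 6 litters, whereas no Kiss1 probeset was above them.

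**Figure D5:**
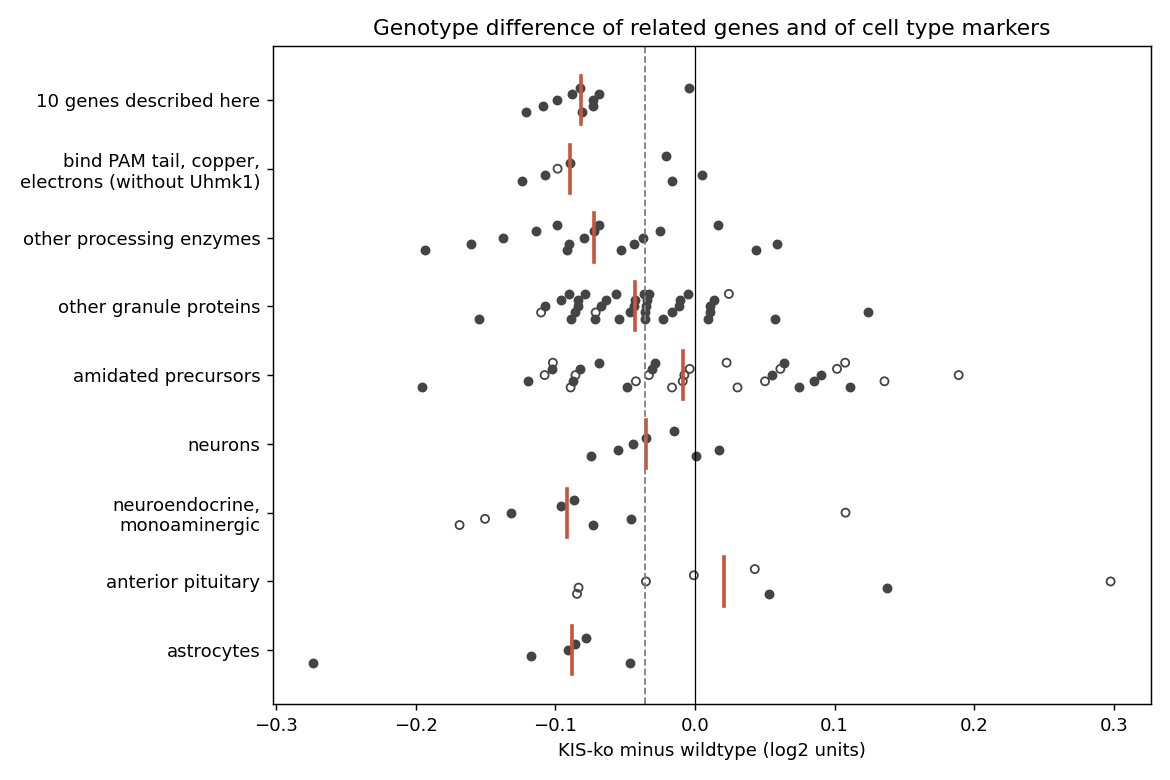
KIS-ko minus wildtype (log2 units) of every gene tested in each list: filled points have at least 1 probeset above the 95th percentile of the intron controls, open points none, red bars are list medians, and the dashed line is the median over all genes. Uhmk1 lies outside the range drawn and is left out of the plot and its median, and the pituitary list lacks Gh and Cga, which were not tested. The list labelled amidated precursors, whose products were not each checked for amidation, spreads on both sides of 0, with a median of -0.0087.

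The tissue was checked with markers, and their levels are the mean gene value over each list. The 7 neuronal markers tested were at 12.07 to 12.23 in wildtype and 12.05 to 12.20 in KIS-ko, with every one of them having probesets above the controls. Of the 10 pituitary markers 8 were tested, without Gh and Cga, whose levels in litter 1 are given above, and the limit rejected 30.7% of the probesets of the list. Of these 8 markers 6 had no probeset above the controls, among them Prl, Pou1f1, Tshb and Fshb, and the 8 stood at 7.30 to 7.49 in wildtype and 7.35 to 7.53 in KIS-ko. Pitx1 was the one with an unadjusted p below 0.05 (0.30, standard error 0.075, adjusted p = 0.685 from limma), with none of its probesets above the controls. The 8 markers of neuroendocrine and monoaminergic cells, which are rich in granules, stood at 8.21 to 8.58 and 8.22 to 8.39. In KIS-ko 7 of the 8 were lower, against 69.8% of all genes tested. Among them Tph2 differed by -0.15 (standard error 0.065, adjusted p = 0.685 from limma), with no probeset above the controls, and Dbh and Pnmt had none either.

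The remaining marker lists had 0 genes called by limma. All 6 astrocyte markers had a lower mean in KIS-ko, with Gfap at -0.27 (standard error 0.081, adjusted p = 0.685 from limma), and the list stood at 11.24 to 11.43 in wildtype and 11.14 to 11.32 in KIS-ko. All 6 oligodendrocyte markers were lower as well (9.60 to 9.80 and 9.46 to 9.80), beside 69.8% of all genes tested. The list medians in litters 1 to 6 were -0.14, -0.26, 0.033, 0.062, -0.10 and -0.24 for astrocytes. For oligodendrocytes they were -0.11, -0.24, 0.064, 0.091, 0.054 and -0.30. In choroid plexus, meninges, endothelium, microglia and erythroid cells 0 markers had an unadjusted p below 0.05. Of those lists and the oligodendrocytes, the genes of lowest p were Kl (-0.10), Aldh1a2 (-0.10), Cldn5 (-0.11), Cx3cr1 (0.080), Epb4.2 (0.065) and Pdgfra (-0.081), and of the neurons Syt1 (-0.075). The part of these cells in the differences of the granule genes was not tested, that of the pituitary included. Leaving out litter 1 takes away its array difference along with its hormone transcripts, so those values cannot tell them apart.

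The genes that carry the cAMP response element were set beside all others. Of the 549 symbols with TGACGTCA in a promoter window, 341 were tested, and their median difference was -0.046, beside -0.037 for the other genes with a window. Of these 78.9% were lower in KIS-ko, against 69.8% of all genes tested. None was called by limma, and 13 (3.81%) had an unadjusted p below 0.05, against 6.16% of all genes. The 3 genes of the group that carry it, whose stretches are given above, differed by -0.088 (Pcsk1), -0.068 (Chgb) and -0.12 (Scg2), and none of these passed the test.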

How the data were processed

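Total RNA of 12 newborn brains was hybridized to 1 exon array each. The authors used the Affymetrix Expression Console, with quantile normalization of exon-level data and PLIER to summarize each probeset, and the deposited intensity is that signal on the linear scale. Version numbers and the genome build of the positions are not given in the sources used here. No further normalization was applied. Any pair of arrays correlated at 0.978 to 0.992 on the log2 scale, and the number of arrays limits the precision.

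Main probesets with a gene symbol were used, except 15948 whose relative standard deviation exceeded 0.4 in wildtype or KIS-ko, which left 205469. The tests of genes, probesets and splicing indexes used log2(signal + 16) and limma 3.58.1 (R 4.3.3). The litter was a block, variances were moderated, and p-values were adjusted by Benjamini-Hochberg over the whole table at 0.05. The pairing comes from the labels, which give each pair a litter. Deviations of littermates from their genotype means correlated at -0.11 to 0.47, and those of arrays from different litters at -0.019 on average. The scripts were tested on simulated data. Plots used Python 3.11.15 and matplotlib 3.10.9.

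The genes, the lists and the tests were chosen with earlier results of these data known. Named in the text were the 10 genes, Uhmk1, probesets of the 10 genes with an unadjusted p below 0.05, up to 3 such genes of each list or otherwise the gene of lowest p, and the 5 genes most correlated with Pam. The PAM tail list is named in full, and Gh and Cga were added after their values were seen. Symbols of the lists were matched through the table and RefSeq synonyms (GRCm38.p6), and 12 symbols with no match, such as Vgf and Kalrn, were not analysed here. Gh and Cga were matched, but every probeset of both was rejected by the limit, and their levels are given from before it. The alternatives were a fit without the block, pseudocounts of 1 and 64, no limit on the relative standard deviation, dim probesets left out, arrays centred or quantile-normalized again, probesets matching 1 place, a median instead of a mean over probesets, robust moderation with a trend, and each litter left out.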

Additional observations from a re-analysis of the deposited data

Results flagged for a closer look

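In a search for single brains far from the other 5 of their genotype, over 42 groups (the 10 genes, Uhmk1 and the 10 pituitary markers before the limit on the relative standard deviation, in each genotype), 3 values were singled out, all of them in litter 1. They are Gh in the wildtype brain (12.15) and in the KIS-ko brain (9.06), and Cga in the wildtype brain (9.78), as gene values on the log2 scale. Chance alone singles out about 5% of such groups. None of the 10 granule and processing genes was singled out.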

How the results depend on the processing

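No gene of the group was called by limma in any of the 16 alternative settings, and the lowest adjusted p was 0.158. Pam, Pcsk2, Cpe, Chga, Chgb, Scg2 and Scg3 were below 0 in all 16. Without the replicate block, that is with the pairing left out, Pam differed by -0.11 (adjusted p = 0.747 from limma), all 10 genes were lower and no call changed. Values above 0 were 0.096 for Pcsk1 and 0.0059 for Pcsk1n with dim probesets left out, 0.051 and 0.029 for Pcsk1n with centred and quantile-normalized arrays, 0.0059 for Pcsk1n with probesets matching 1 place only, and 0.016 for Pcsk1n and 0.0098 for Scg5 with the median over probesets. With single litters left out Pcsk1n ranged from -0.070 to 0.073. The 3′ minus 5′ difference of Pam, near 0, was -0.0042 with dim probesets left out, -0.00079 with quantile normalization and -0.021 with probesets matching 1 place, and ranged from -0.021 to 0.026 with single litters left out. The count of called genes was 2 with a pseudocount of 64 and with trend and robust moderation (Uhmk1 and Gas5 both times), 2 without the limit on the relative standard deviation (Uhmk1 and Fcgr3), 5 with dim probesets left out (Uhmk1, Ppox, Gas5, Rgs4 and Dcaf8), and 1 to 2 with single litters left out, the second being Ifi204 without litter 3. These names were taken after their values were seen, and the cause of these changes was not tested. Signal over background limits Pcsk1 and the dim Pam probesets, and 6 pairs leave intervals that reach to -0.28 for a gene of the group.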
